A study of Mus musculus with 5 samples.

Results

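Shear stress and vasoactive genes of the endothelium were followed here as a set of 9 named genes: the flow sensor Piezo1, the flow-induced transcription factors Klf2 and Klf4, the nitric oxide synthase Nos3, the vasoconstrictor peptide gene Edn1 with its converting enzyme Ece1 and its receptors Ednra and Ednrb, and the angiotensin-converting enzyme Ace. The members were chosen by gene symbol. All 9 were among the 17638 genes of the deposited table, and all 9 passed the filter for testing, which asked for a mean of at least 10 normalised counts and kept 14339 genes in all. The study sequenced polyadenylated RNA from CD31-positive cells of infarcted mouse hearts, taken 5 days after the infarction. There were 2 libraries of the genotype named Tbx1cko, an endothelial knockout of the T-box transcription factor gene Tbx1 according to the series, and 3 libraries of controls. All mice had a C57BL/6 background, were 2 months old and had an infarction, so uninjured hearts form no group. The labels name neither the Cre line, nor the deleted part of Tbx1, nor the genotype of the controls beyond that word, and they do not tell if each library stands for its own animal. The p-values below therefore measure the spread between these libraries, which may be technical.

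Endothelial cells sense the drag of flowing blood through membrane proteins that include the PIEZO1 cation channel. Steady flow activates the kinases MEK5 and ERK5 and MEF2 transcription factors, which switch on KLF2 and KLF4. These zinc-finger factors raise endothelial nitric oxide synthase and thrombomodulin and restrain inflammatory genes and endothelin-1. Nitric oxide relaxes vascular smooth muscle. Endothelin-1 is released as a precursor that ECE1 cuts. It constricts vessels through the A receptor on smooth muscle and pericytes, while the B receptor on endothelial cells clears the peptide and releases nitric oxide. ACE, on the luminal surface of the endothelium, makes angiotensin II and breaks down bradykinin.

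Recovered reads per library came to between 14689782 and 18617284. Tbx1 had 18.3 and 17.3 normalised counts in Tbx1cko replicates 1 and 2, against 64.4, 72.7 and 69.6 in control replicates 1 to 3, which goes with the labels. Its log2 difference of -1.89 missed the limma threshold (adjusted p = 0.762), so a miss in this comparison does not show that a gene did not differ. All 14 pan-endothelial markers were detected in every library. Their summed normalised count was 231653 and 216860 in Tbx1cko and 249890, 336240 and 237461 in controls. Markers of mural cells (12 genes), fibroblasts (10), macrophages and monocytes (12) and cardiomyocytes (10) were also above 0 in every library. Their means over the libraries ran from 47.5 (Tcf21) to 43151 (Lyz2), so the RNA was unlikely to be endothelial alone. Whether whole cells of these types or only their RNA were carried along was not tested. Control replicate 2 stood apart. Its log2 values correlated with those of the other libraries at r between 0.905 and 0.922 across genes, whereas pairs among the remaining 4 libraries gave 0.977 to 0.983. Its deviation from the other libraries followed transcript GC content, with a Spearman rho of 0.801 over 13771 genes. The members' differences and most list medians below are given with and without it, and summed counts are given for each library.

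None of the 9 genes passed an adjusted p of 0.05 in the comparison of Tbx1cko with control by limma, nor did any of the 14339 genes tested (0%). At an unadjusted p under 0.05 there were 0 members and 250 genes (1.74%). On the recovered reads, edgeR and DESeq2 each called 0 members, and DESeq2 called 4 genes in all (0.0279%). In level, 8 of the 9 members were lower in Tbx1cko, beside 47.6% of all genes tested, and 1, Ednrb, was higher. For 6 members (Piezo1, Klf2, Klf4, Nos3, Ece1 and Ednra) both Tbx1cko libraries lay below every control library, as they did for 13.9% of all genes tested. The median log2 difference of the members was -0.42, and the median over all genes tested was 0.03. Without control replicate 2 the same 6 members kept groups that did not overlap, beside 17.8% of genes, 8 of 9 members were again lower, beside 46.7% of genes, and the members' median moved to -0.23. In that fit limma called 3 genes (0.0209%) and 0 members, with Klf2, Piezo1 and Ednra at an unadjusted p under 0.05, a level that 7.46% of genes reached. By edgeR 0 members and 1 gene (0.00697%) were then called, and by DESeq2 0 members and 78 genes (0.544% of all genes in the fit). DESeq2 gave some genes, Tbx1 among them, no adjusted p in that fit, so those genes could not be called. With all libraries, pan-endothelial markers were themselves lower in level in 12 of 14 cases, with a median log2 difference of -0.21. Their groups did not overlap for 8 lower and 1 higher marker, beside 13.9% and 14.2% of all genes. Without control replicate 2 the median was -0.098, and these counts were 8 and 2, beside 17.8% and 19.7%. Scaling to these markers puts the median of all genes at 0.24. On that scale, groups did not overlap for 3 members (Klf2, Piezo1 and Ece1), all lower in Tbx1cko, beside 6.37% of genes. Other marker lists moved too. Endocardial markers were lower in 9 of 9 cases, 6 of them without overlap, beside 13.9% of all genes. Their median log2 difference was -0.50, or -0.46 without control replicate 2 and -0.61 after GC correction. They summed to 12752 and 12470.4 normalised counts in Tbx1cko and 14586, 21746 and 15719 in controls. Plvap was the largest part of these sums, at a mean of 8392 over the libraries. Platelet markers were higher in 6 of 7 cases, with a median of 0.25, or 0.34 without control replicate 2, where DESeq2 called Pf4 higher. They summed to 5282 and 4686 in Tbx1cko and 2296, 3229 and 3951 in controls. Cardiomyocyte markers were higher in 5 of 10 cases, but in 10 of 10 without control replicate 2, at a median of 0.35. Capillary endothelial markers, of which Kcnj8 is also counted among the mural markers, were lower in 6 of 10 cases, at a median of -0.16. Without control replicate 2 they were higher in 8 of 10, at a median of 0.17. They summed to 159333 and 203567.5 in Tbx1cko and 142114, 109933 and 143076 in controls. The part of these cells in the members' values was not tested. In these bulk samples, fewer cells of a type and less RNA per cell cannot be told apart.

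**Figure D1:**
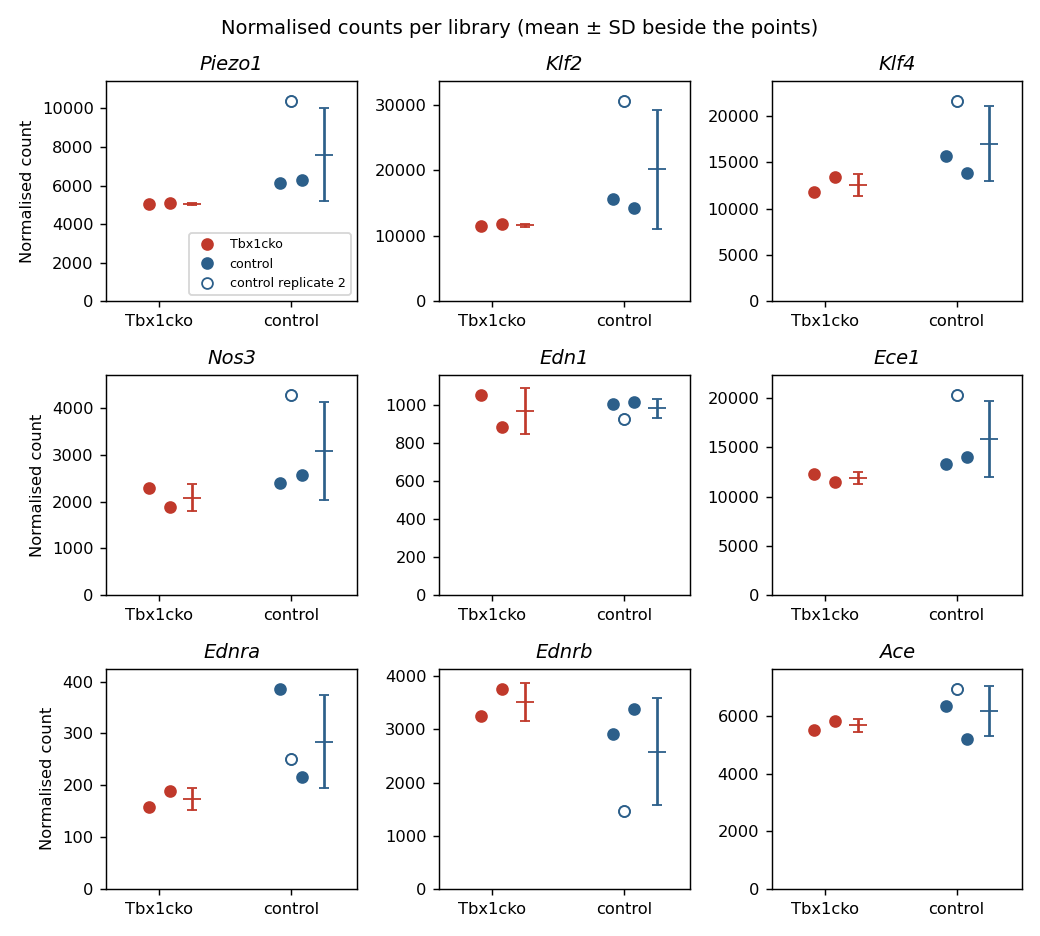
Normalised counts of the 9 genes in each library, with 2 Tbx1cko libraries to the left of 3 control libraries and the mean and SD beside the points. The open circle is control replicate 2, which is the highest library for Piezo1, Klf2, Klf4, Nos3, Ece1 and Ace and the lowest for Ednrb.

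The members differed widely in level. Per kilobase of exon, the normalised count of Klf2 ran from 6194 to 16568 over the 5 libraries and that of Klf4 from 3853 to 7089. Klf2 was above Klf4 in every library on this scale. Ece1 ran from 2160.4 to 3834 per kilobase and Ace from 989 to 1318, and these 2 ranges did not overlap with each other or with those of the Klf genes. Ednrb (342 to 883 per kilobase), Piezo1 (506 to 1045), Nos3 (455 to 1036) and Edn1 (413 to 492) followed. The ranges of Ednrb and Nos3 overlapped with each other and with those of Piezo1 and Edn1, so their place in the order did not hold beyond the spread between libraries, whereas Piezo1 was above Edn1 in every library. The ranges of Piezo1 and Nos3 also reached into that of Ace. Ednra was the least abundant, at 28.9 to 70.6 per kilobase, below every other member in every library.

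Piezo1, the mechanically gated cation channel, lies at chr8:122481698-122551329 on the minus strand (GRCm38, ENSMUSG00000014444.17). Its normalised counts were 5027 and 5102 in Tbx1cko replicates 1 and 2, against 6139, 10386 and 6293 in control replicates 1 to 3. The Tbx1cko values lay close together and below every control, and control replicate 2 was far above the other controls. The log2 difference, fitted on log2(normalised count + 1) here and below, was -0.54 (SE 0.283), with a limma adjusted p of 0.762. Without control replicate 2 it was -0.30 (SE 0.117). Exons of Piezo1 share 2441 bases, 24.6% of their length, with Ctu2 on the opposite strand. Ctu2 averaged 287 normalised counts, and no source used here states whether counting used strand, so the 2 genes may have exchanged reads.

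Klf2 and Klf4 encode paired Krüppel-like factors of laminar flow, and both are also induced rapidly in handled or stressed cells. Klf2 (ENSMUSG00000055148.7) lies at chr8:72319033-72321656 on the plus strand, and Klf4 (ENSMUSG00000003032.8) at chr4:55527143-55532466 on the minus strand. Their upstream sequences, with that of Ednra, are shown because Klf2 and Ednra had the log2 differences farthest below 0 and Klf4 is the flow-linked partner of Klf2. The sequences are from RefSeq on GRCm38.p6 and end before the annotated transcript starts. Capitals mark a match to a MEF2 pattern, CTA and TAG with 4 bases of any kind between them. The Klf2 stretch is chr8:72318812-72319032 on the plus strand, the Klf4 stretch chr4:55532476-55532725 on the minus strand and the Ednra stretch chr8:77724465-77724702 on the minus strand.
Klf2: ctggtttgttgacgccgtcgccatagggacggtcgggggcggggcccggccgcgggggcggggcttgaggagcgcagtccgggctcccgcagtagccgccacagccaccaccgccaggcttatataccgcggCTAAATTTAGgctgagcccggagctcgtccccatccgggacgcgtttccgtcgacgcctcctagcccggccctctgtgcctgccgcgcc
Klf4: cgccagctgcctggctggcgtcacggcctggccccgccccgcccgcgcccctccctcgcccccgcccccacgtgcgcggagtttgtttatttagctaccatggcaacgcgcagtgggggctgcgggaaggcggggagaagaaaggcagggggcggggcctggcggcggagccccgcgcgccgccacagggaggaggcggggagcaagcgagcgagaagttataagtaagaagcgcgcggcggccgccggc
Ednra: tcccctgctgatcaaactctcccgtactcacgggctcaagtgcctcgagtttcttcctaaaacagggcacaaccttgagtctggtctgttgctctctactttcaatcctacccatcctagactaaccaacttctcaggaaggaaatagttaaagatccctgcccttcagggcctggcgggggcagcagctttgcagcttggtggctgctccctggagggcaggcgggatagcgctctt

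Klf2 held the match CTAAATTTAG, which began 118 bases upstream of the RefSeq start. The MEF2 pattern, which reads the same on both strands, was found in 3.69% of 32851 promoter windows of 300 bases. Among the members 8 had a promoter window, Nos3 had none listed, and Klf2 was the only member with a match. The shorter KLF pattern CACCC, searched on both strands, was found in 57.5% of windows. It was in a window of Klf2, Piezo1, Edn1, Ednrb, Ece1 and Ace, and in no window of Klf4 or Ednra. The GC content of the printed stretches was 71.5% for Klf2, 74% for Klf4 and 54.6% for Ednra.

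Klf2 had 11441 and 11806 normalised counts in Tbx1cko, against 15615, 30600.4 and 14288 in controls. Both Tbx1cko libraries were below every control, and control replicate 2 was about as far above the other controls as they were above zero. The means were 11623 ± 258 in Tbx1cko (SD, n = 2) and 20168 ± 9059 in controls (SD, n = 3), and the log2 difference was -0.71 (SE 0.363, limma adjusted p = 0.762). Without control replicate 2 the difference was -0.36 (SE 0.132, adjusted p = 0.547). DESeq2 on the recovered reads without that library gave -0.38 with an adjusted p of 0.204, the smallest for this gene over 18 alternatives.

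Klf4 had 11749 and 13377 normalised counts in Tbx1cko, against 15642, 21616 and 13841 in controls. The ranges stayed apart, although Tbx1cko replicate 2 and control replicate 3 lay close to each other. For Klf4 the log2 difference was -0.42 (SE 0.241, limma adjusted p = 0.762), and -0.23 without control replicate 2. Immediate early genes, which answer to cell handling as well as to signals, were lower alongside these Klf genes. Of 22 such genes, 22 were lower in level and 18 had groups that did not overlap, beside 13.9% of all genes, with a median log2 difference of -0.73. All 22 were again lower without control replicate 2, 19 without overlap, beside 17.8% of genes, the median was -0.47, and DESeq2 called 4 lower. After GC correction the median was -0.44. Their summed normalised count was 294558 and 337382 in Tbx1cko and 483223, 713708 and 371561 in controls, and the part of this in the Klf values was not tested.

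Nos3, endothelial nitric oxide synthase, lies at chr5:24364810-24384474 on the plus strand (ENSMUSG00000028978.12). Its normalised counts were 2284 and 1879 in Tbx1cko, against 2397, 4279.9 and 2559 in controls. There was no overlap, but Tbx1cko replicate 1 lay just under control replicate 1. For Nos3 the log2 difference was -0.52 (SE 0.311, limma adjusted p = 0.762), and -0.26 without control replicate 2. After correction for GC content the groups overlapped and the difference was -0.18. Exons of Nos3 share 294 bases with Atg9b and 1040 bases, 25.2% of their length, with Gm15587, both on the opposite strand, and these genes averaged 119 and 74.6 normalised counts.

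Edn1 encodes preproendothelin-1 and lies at chr13:42301476-42307990 on the plus strand (ENSMUSG00000021367.8). Its normalised counts were 1052 and 883 in Tbx1cko, against 1006, 925 and 1012 in controls. The Tbx1cko values fell on either side of all controls, so the groups overlapped. The log2 difference was -0.03 (SE 0.194, limma adjusted p = 0.962) and -0.07 without control replicate 2, and its sign turned in 2 of 18 alternatives. Ligand genes Edn2 and Edn3 had no row under those symbols in the deposited table, so they could not be tested.

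Ece1, the metalloprotease that cuts the endothelin precursor, lies at chr4:137862237-137965229 on the plus strand (ENSMUSG00000057530.14). It had 12325 and 11450.3 normalised counts in Tbx1cko, against 13334, 20318 and 13966 in controls. Both Tbx1cko values were below every control and control replicate 2 was again the highest. Ece1 had a log2 difference of -0.39 (SE 0.238, limma adjusted p = 0.762), and -0.20 without that library. Its relative Ece2 overlapped between the groups, at 133 and 114 in Tbx1cko and 134, 131 and 95.0 in controls. Mme, the gene of neprilysin, which degrades endothelin and other peptides, did not pass the filter, at 7.32 and 13.2 in Tbx1cko and 3.39, 2.76 and 4.70 in controls.

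Ednra, the endothelin A receptor, lies at chr8:77663031-77724464 on the minus strand (ENSMUSG00000031616.7). Its normalised counts were 158 and 189 in Tbx1cko, against 386, 251 and 215 in controls. Both Tbx1cko libraries were below every control, and here control replicate 1, not replicate 2, was the highest. The log2 difference was -0.67 (SE 0.326, limma adjusted p = 0.762), and -0.74 (SE 0.255, adjusted p = 0.519) without control replicate 2. It was -0.43 without control replicate 1. With GC correction the difference was -0.86, further from 0 than with no correction, while those of Klf2, Klf4, Nos3, Piezo1 and Ece1 moved towards 0. These values rest on 173 to 342 reads per library.

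Mural cells carry the A receptor, and their 12 marker genes were lower in Tbx1cko in 11 of 12 cases, with a median log2 difference of -0.82 and 10 genes without overlap, beside 13.9% of all genes. Without control replicate 2 the median was -0.62, 11 genes did not overlap, beside 17.8%, and DESeq2 called 6 of the markers lower. The summed mural count was 40385 and 42270.0 in Tbx1cko and 61568, 50123 and 53212 in controls. Rgs5 was the largest part of this sum, at a mean of 25054 over the libraries. No mural marker was at 0 in any library. Relative to the mean log2 level of these markers, a scale added after the data were seen, Ednra stood at -2.97 and -2.67 in Tbx1cko and at -2.40, -3.43 and -2.98 in controls. On this scale the groups overlapped and the difference was 0.12, with an exact permutation p of 0.8 (2-sided, smallest possible 0.1). Without control replicate 2, the lowest library on this scale, the difference was -0.12. Per 1000 summed mural counts, another scale added after the data were seen, Ednra stood at 3.92 and 4.46 in Tbx1cko and at 6.28, 5.01 and 4.05 in controls. These groups overlapped too, and the difference was -0.92 (exact 2-sided permutation p = 0.4), or -0.97 without control replicate 2. Fibroblasts also carry the receptor, and their 10 markers summed to 19859.8 and 40459 in Tbx1cko and 38436, 21822 and 26256 in controls, which overlapped.

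Ednrb, the endothelin B receptor, lies at chr14:103814625-103844402 on the minus strand (ENSMUSG00000022122.15). It had 3259.7 and 3769 normalised counts in Tbx1cko, against 2906, 1457 and 3385 in controls. Tbx1cko replicate 1 lay below control replicate 3, so the groups overlapped, and control replicate 2 was the lowest library. Its log2 difference was 0.53 (SE 0.398, limma adjusted p = 0.762), 0.16 without control replicate 2 and 0.05 after GC correction.

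The balance of both receptors was compared within each library, where library scaling has no effect. Ednra made up 3.64% and 3.75% of the summed receptor level per kilobase of exon in Tbx1cko replicates 1 and 2, against 9.39%, 11.8% and 4.72% in control replicates 1 to 3. Both Tbx1cko shares were lower than every control share, and control replicate 3 lay nearer to them than to the other controls. The means were 3.70% ± 0.0759 in Tbx1cko (SD, n = 2) and 8.65% ± 3.61 in controls (SD, n = 3). An exact 2-sided permutation test over the libraries gave p = 0.2, where 10 possible splits allow no p under 0.1. The difference was -4.95 percentage points, -3.36 without control replicate 2 and -3.64 after GC correction.

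**Figure D2:**
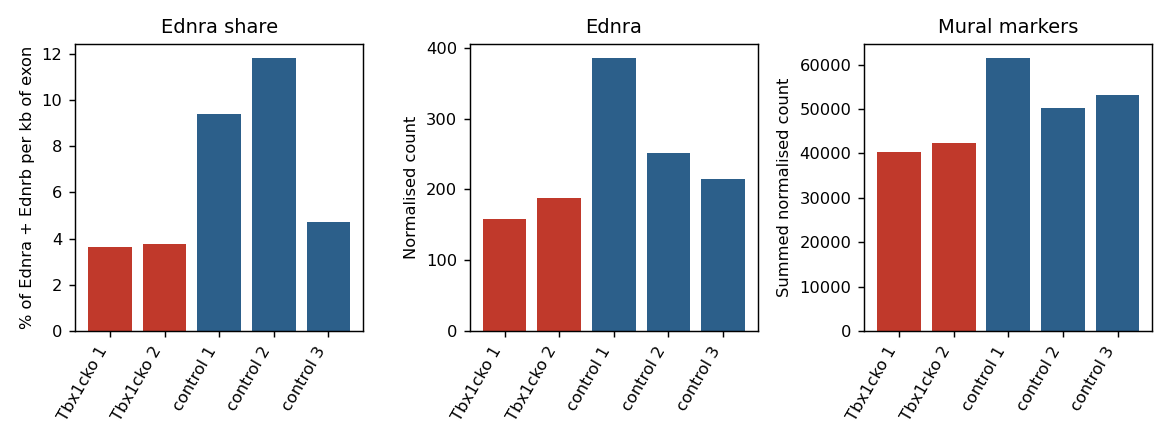
Ednra share of the summed endothelin receptor level per kilobase of exon (left, percent), Ednra normalised counts (middle) and the summed normalised counts of 12 mural markers (right), with a bar for each library, 2 Tbx1cko and 3 control. In each panel both Tbx1cko libraries are lower than every control library.

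Ace, which lies at chr11:105967945-105989964 on the plus strand (ENSMUSG00000020681.14), had 5538 and 5856 normalised counts in Tbx1cko, against 6359, 6966 and 5229.7 in controls. The Tbx1cko values lay between those of control replicates 3 and 1. The log2 difference was -0.11 (SE 0.195, limma adjusted p = 0.821), -0.02 without control replicate 2 and 0.14 after GC correction.

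**Figure D3:**
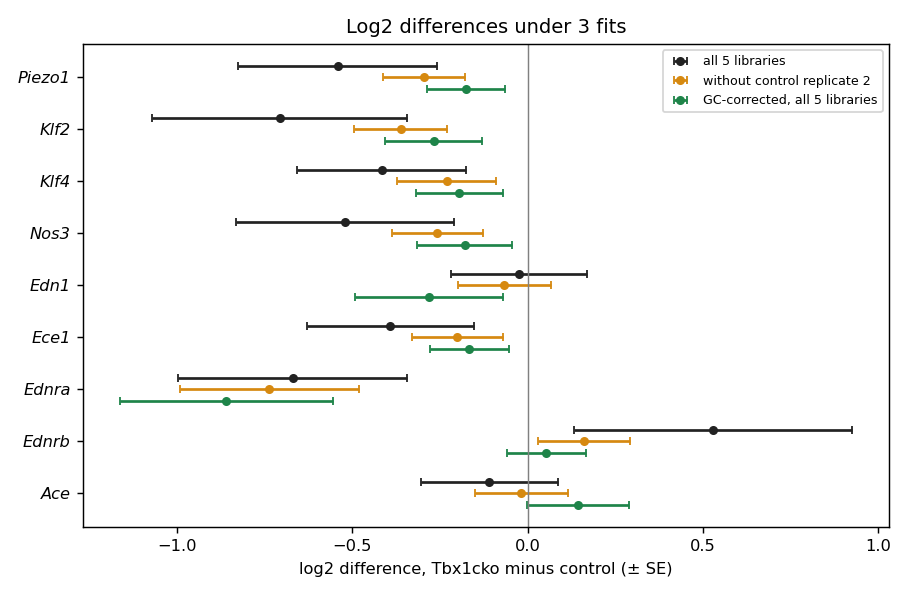
Log2 differences of the 9 genes, Tbx1cko minus control, with their SE, in limma fits with all 5 libraries, without control replicate 2, and with all libraries after GC correction. Klf2, Klf4, Nos3, Piezo1 and Ece1 move towards 0 in the other 2 fits, whereas Ednra stays between -0.67 and -0.86.

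The members' values in control replicate 2 followed the GC content of their transcripts. Its log2 deviation from the mean of control replicates 1 and 3 was 1.03 for Klf2, whose longest transcript has 61.6% GC, 0.79 for Nos3 (58.2%) and 0.74 for Piezo1 (59.0%). It was 0.57 for Ece1 (54.8%), 0.55 for Klf4 (54.6%), and 0.27 for Ace (55.6%). It was -0.12 for Edn1 (46.1%), -0.20 for Ednra (46.9%) and -1.11 for Ednrb (43.9%). Across the 9 genes, which share their libraries, the Spearman rho between GC content and this deviation was 0.917. The log2 difference between the genotypes ran the other way, with a rho of -0.683 over all libraries and -0.517 without control replicate 2. After GC correction of all 5 libraries, Klf2 stood at -0.27, Klf4 at -0.20, Piezo1 at -0.17, Ece1 at -0.17 and Edn1 at -0.28. Both Tbx1cko libraries then lay below every control for 5 members (Klf2, Klf4, Piezo1, Ece1 and Ednra), beside 13.1% of genes, and 0 members were called.

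**Figure D4:**
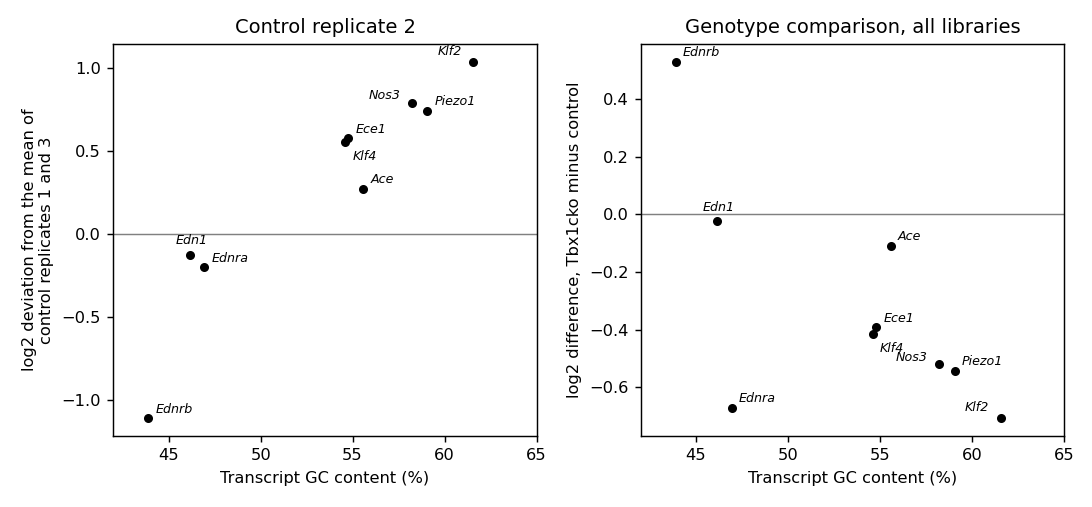
Transcript GC content of the 9 genes (horizontal, percent) against the log2 deviation of control replicate 2 from the mean of control replicates 1 and 3 (left) and against the log2 difference between Tbx1cko and control (right). The deviation climbs from -1.11 for Ednrb to 1.03 for Klf2, and Ednra lies apart from the other low-GC members on the right, at -0.67.

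By the root mean square distance between centred log2 values over the 5 libraries, among 10082 other genes with a mean of at least 100, the nearest genes to Klf2 were Dock6, Cebpd and Tmc6, at 0.0166 to 0.0316. Those nearest to Klf4 were Ghdc, Plekhg2 and Ier3, and those nearest to Nos3 were L1cam, Adcy4 and Pear1. Ednrb had Fam133b, Tbc1d31 and Zyg11b nearest, at 0.0228 to 0.0318. Ednra had no gene as near. Its closest were Csf3 at 0.0624, Cd74 at 0.133 and H2-T24 at 0.137. The distances take in control replicate 2, where Dock6 had 16754 normalised counts, against 6343 to 8622 in the other libraries. Fam133b had 210 there, against 424 to 548 in the others. Dock6, Cebpd and Tmc6 have 58.4%, 51.6% and 58.6% GC, and Fam133b, Tbc1d31 and Zyg11b 40.6%, 43.7% and 43.2%. Whether GC content or shared regulation lies behind these matches was not tested.

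Of 29 genes of shear sensing and transduction, Piezo1 among them, 17 were lower and 12 higher in level in Tbx1cko, and 0 passed the limma threshold. The groups did not overlap for 11 lower and 1 higher gene, beside 13.9% and 14.2% of all genes, and the median log2 difference was -0.16. Hdac5, a deacetylase that holds MEF2 in check, had 2450.4 ± 29.6 normalised counts in Tbx1cko and 3967 ± 1491 in controls (SD, n = 2 and 3). The polycystin gene Pkd1 had 4235 ± 595 in Tbx1cko and 6595 ± 2387 in controls. The flow-sensing complex member Kdr, VEGF receptor 2, had 24358 ± 2163 in Tbx1cko and 30700.4 ± 3983 in controls, and the mechanosensitive guidance receptor Plxnd1 had 24829 ± 3805 in Tbx1cko and 35209 ± 9902 in controls. All 4 kept groups that did not overlap without control replicate 2, where 14 of the 29 genes were lower without overlap and 1 higher, beside 17.8% and 19.7% of genes, and the median was -0.11. Scaled to the pan-endothelial markers, the list's median was 0.06, and after GC correction it was -0.07. With that correction Plxnd1 moved from a log2 difference of -0.48 to -0.06, Hdac5 from -0.63 to -0.24 and Pkd1 from -0.59 to -0.30. Kdr moved from -0.33 to -0.38.

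The Krüppel-like factor family had 14 of 17 genes tested, of which 9 were lower and 5 higher in level, with 3 lower without overlap, beside 13.9% of all genes, and a median log2 difference of -0.10. Without control replicate 2, 7 were lower and 7 higher, and the median was -0.04. In that fit 4 were lower and 1 higher without overlap, beside 17.8% and 19.7% of all genes. Besides Klf2 and Klf4, the groups did not overlap for Klf10, a TGF-beta-induced factor, at 2383 and 3346 in Tbx1cko and 3589, 3692 and 3534 in controls. Klf6, an injury-induced factor with 42.4% GC, had 16585 and 19551 in Tbx1cko and 15524, 8735 and 16650 in controls, which overlapped. With 1 library left out, the family's median changed sign only without Tbx1cko replicate 1, at 0.09.

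Among 19 tested genes listed as responsive to KLF2 or KLF4 in endothelium, Nos3 among them, 13 were lower and 6 higher in level, and 0 passed the limma threshold. For 8 lower and 2 higher genes the groups did not overlap, beside 13.9% and 14.2% of all genes, and without control replicate 2 these counts were again 8 and 2, beside 17.8% and 19.7%. Thrombomodulin, Thbd, the receptor that turns thrombin to anticoagulant use, had 7174 ± 607 normalised counts in Tbx1cko and 9981 ± 2734 in controls. The water channel gene Aqp1 had 21131 ± 518 in Tbx1cko and 33021 ± 13014 in controls, and the Notch ligand gene Dll1 had 715 ± 27.4 in Tbx1cko and 997 ± 227 in controls. Log2 differences of Thbd, Aqp1 and Dll1 were -0.44, -0.57 and -0.46 with all libraries. Without control replicate 2 they were -0.24, -0.27 and -0.28, and after GC correction -0.36, -0.345 and -0.23. Hmox1, haem oxygenase 1, which macrophages also express strongly, went the other way, at 12621 and 10424 in Tbx1cko and 5104, 9834 and 8556 in controls. DESeq2 without control replicate 2 called Hmox1 higher, at a log2 difference of 0.75 (adjusted p = 0.0295), and called no other gene of this list. The list's median was -0.36 with all libraries, -0.06 without control replicate 2 and -0.12 after GC correction.

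Genes of nitric oxide synthesis and signalling, 25 tested, had 15 lower and 10 higher in level, 0 past the limma threshold, and a median log2 difference of -0.15. Leaving out control replicate 2 brought that median to -0.05. Pts, an enzyme that makes the cofactor tetrahydrobiopterin, had 305 and 299.6 normalised counts in Tbx1cko and 223, 109 and 235 in controls. Its log2 difference of 0.75 became -0.06 after GC correction. Arg1, an arginase that competes with Nos3 for arginine and is abundant in repair macrophages, had 2120.1 and 916 in Tbx1cko and 382, 517 and 1128 in controls, which overlapped. Arg2 had 139 and 135 in Tbx1cko and 108, 33.1 and 104 in controls. Hsp90ab1, a chaperone that binds Nos3, had 34074 and 30648 in Tbx1cko and 39501, 42713 and 36443 in controls. Macrophage and monocyte markers summed to 101331 and 103228 in Tbx1cko and 108633, 69516 and 82494 in controls, and their part in the Hmox1 and Arg1 values was not tested.

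Of the angiotensin and kinin genes other than Ace, 9 were tested and 0 passed the limma threshold. Enpep, the pericyte aminopeptidase that degrades angiotensin II, was the only gene of this list without overlap with all libraries, at 219 and 274 in Tbx1cko and 395, 306 and 309 in controls, a log2 difference of -0.45, or -0.51 without control replicate 2. The median of the list with Ace was -0.11, and 0.13 without that library. The type 1 angiotensin receptor gene Agtr1a had 16.5 and 28.5 in Tbx1cko and 20.3, 24.8 and 16.0 in controls, and the bradykinin receptor gene Bdkrb2 had 112 and 143 in Tbx1cko and 124, 192 and 104 in controls. For both receptors the groups overlapped.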

How the data were processed

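Sample titles gave the groups and the replicate numbers. TRIzol LS was used for RNA and an Illumina TruSeq kit for libraries, per the labels' protocols. The submitters' processing notes name GRCm38 (mm10), STAR 2.5.2b, DESeq, DESeq2 1.20.0 and R 3.5.1. They do not name a read counter, an annotation or a strand setting, which are therefore not stated here.

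The deposited table holds a signal: for each gene and library, the authors divided the read count by a size factor. Within a tolerance of 0.01, 100% of values were whole multiples of the smallest value above 0 of their library, which gave back whole reads. No row lacked a gene name. Pairs of libraries differed by at least 11.9 in chi-square per degree of freedom, so none was treated as a duplicate.

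The main test was limma 3.58.1, run in R 4.3.3 on log2(normalised count + 1), over genes with a mean of at least 10, with genotype as the only term, a trended prior, 2-sided tests, Benjamini-Hochberg adjustment over all genes tested and a threshold of 0.05. A pseudocount of 1 understates the change of low genes. The recovered reads were also tested with edgeR 4.0.16 and DESeq2 1.42.0. GC content is that of a gene's longest GENCODE M21 transcript, known for 13771 genes tested, and was corrected by a loess of each library's deviation (span 0.3). Exon lengths and positions are from the same annotation, matched by symbol. The members, the gene lists and the tests were chosen with earlier results of these data known. From each list the text names up to 4 genes besides the members with the smallest unadjusted p. Agtr1a, Bdkrb2 and Mme were named for their roles after their values were seen.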

Additional observations from a re-analysis of the deposited data

How the results depend on the processing

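All 9 members missed the threshold in the main comparison and in all 18 alternatives, which changed the pseudocount (0.5 or 5), the filter (none, or a mean of 50), the scaling (TMM or pan-endothelial markers), the tool, the GC correction, the replicate block or the libraries. Piezo1, Klf2, Klf4, Nos3, Ece1 and Ednra were lower in Tbx1cko and Ednrb higher in all 18. Ace turned to 0.14 with GC correction, to 0.0516 with GC correction without control replicate 2 and to 0.11 with pan-endothelial scaling. Edn1 turned to 0.19 with pan-endothelial scaling, and ran from -0.15 to 0.10 with a library left out. That scaling puts the median of all genes at 0.24, and both lay below it. Scaled to the mean log2 level of the mural markers, Ednra turned to 0.12, but it was -0.12 on that scale without control replicate 2, and -0.27 scaled to the summed mural counts, with and without that library. The members' median was -0.14 with GC correction without control replicate 2. The count of genes called was 4 with DESeq2, and without control replicate 2 it was 3 with limma, 78 with DESeq2 and 1 with edgeR. It ran from 0 to 3 with a library left out.

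List medians turned positive with pan-endothelial scaling for shear sensing (0.0574), the KLF family (0.11), nitric oxide (0.057), endothelin (0.19), angiotensin and kinin (0.11) and prostanoid genes (0.0025). The nitric oxide median was 0.0065 with GC correction without control replicate 2. With a library left out, the KLF family ran from -0.29 to 0.0894, the endothelin list from -0.15 to 0.10 and the angiotensin list from -0.22 to 0.17. The angiotensin median was 0.13 with DESeq2 and 0.13 with edgeR without control replicate 2, and 0.11 with GC correction without it. The cause was not tested, beyond what each scaling sets by its construction.

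The groups share replicate numbers 1 and 2, but nothing in the labels pairs them. Deviations of same-numbered libraries from their group means correlated at -0.056 and -0.046. The deviations of 2 Tbx1cko libraries from their mean mirror each other, so these correlations cannot decide whether libraries were paired. With the replicate block, limma called 3 genes and 0 members, and the difference of Klf2 was -0.91 (adjusted p = 0.324). Replicate number 3 occurs only among controls, so control replicate 3 adds nothing to a blocked difference. Each member's blocked difference equalled that without control replicate 3, so these are not separate alternatives for the size of the differences.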

Other observations

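Prostanoids, the vasoactive lipids made from arachidonic acid, were the other vessel-tone system examined, with 12 genes tested. Of these, 8 were lower and 4 higher in level in Tbx1cko, 0 passed the limma threshold, and the median log2 difference was -0.21, or -0.03 without control replicate 2. The groups did not overlap for 4 lower and 3 higher genes, beside 13.9% and 14.2% of all genes, and for as many without that library, beside 17.8% and 19.7%. Ptger4, a prostaglandin E2 receptor that raises cyclic AMP, had 522 and 513 normalised counts in Tbx1cko, against 853, 1126 and 632 in controls. Its log2 difference of -0.71 (SE 0.294, limma adjusted p = 0.762) was -0.50 without control replicate 2 and -1.21 after GC correction. The thromboxane receptor gene Tbxa2r had 279.9 and 142 in Tbx1cko, against 282, 654 and 288 in controls. Ptgir, the prostacyclin receptor, had 52.1 and 38.7 in Tbx1cko, against 73.4, 74.5 and 57.4 in controls. Ptger2, another prostaglandin E2 receptor, went the other way at low counts, with 32.9 and 32.6 in Tbx1cko and 15.8, 23.9 and 11.3 in controls.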
